A study of Mus musculus with 4 samples.

Results

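The genes described here encode the catalytic subunits of the protein phosphatases PP2A, PP4 and PP6, their scaffold and regulatory subunits, and factors that assemble these enzymes. They were taken by symbol from a list of 35 names, and all 35 were found among the 47725 gene rows of the table, each in 1 row. The RNA came from whole skin of C57BL/6J mice aged 17 weeks. The group labelled cKO and the control group, labelled PP6fl/fl, had 2 libraries each, numbered 2 and 3. Both groups carry the floxed Ppp6c allele, and Ppp6c encodes the PP6 catalytic subunit. In the cKO group it is combined with K5, taken here to stand for the keratin 5 promoter, which drives expression in basal keratinocytes. No recombinase and no deleted exon is named in the labels. Separate animals are not stated either, so p-values measure only how these libraries vary, which may be technical.

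PP2A, PP4 and PP6 are related serine/threonine phosphatases of the PPP family. In PP2A, a catalytic subunit binds a scaffold and a regulatory subunit from 1 of several unrelated families, and the regulatory subunit directs the enzyme to its substrates. PP4 and PP6 have regulatory subunits of their own, and PP6 pairs a SAPS-domain protein with an ankyrin repeat protein. PP6 is known to act on Aurora A kinase in mitosis and on signalling toward NF-kB, and in mouse skin loss of Ppp6c from keratinocytes is known to promote tumours and psoriasis-like disease.

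The counts summed to 15837136 and 17459413 in the cKO libraries and to 23407731 and 22334208 in the control libraries. CPM below are count rates scaled with TMM factors, and FPKM are the authors' values per length. The labelled tissue was met by its markers: all 8 basal and all 8 suprabasal keratinocyte markers were detected, with summed levels of 12890 to 19260 CPM in cKO against 12650 to 12810 CPM in control for the basal list. Of the 8 basal markers, however, 5 were lower in both cKO libraries and 1 was higher in both, with a median log2 fold change of -0.39. The suprabasal list summed to 18340 to 30840 CPM in cKO and 13090 to 13150 CPM in control. Of its 8 markers, however, 3 were higher in both cKO libraries and 2 were lower in both, with a median log2 fold change of 0.27. Neutrophil markers summed to 949 to 1414 CPM in cKO and 16.5 to 22.9 CPM in control, macrophage markers to 1015 to 1123 and 452 to 627 CPM, fibroblast markers to 12820 to 19860 and 6724 to 7619 CPM, and endothelial markers to 519 to 840 and 354 to 374 CPM, with cKO first in each pair and 8 of 8 markers detected in each list. In bulk RNA, fewer cells of a type and less RNA per cell cannot be told apart.

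Of the 35 subunit genes, all passed the filter on low counts, and 1 differed between the groups. That gene was Ppp2r2c, a B55-type regulatory subunit of PP2A, which was lower in cKO at an adjusted p under 0.05 (edgeR quasi-likelihood with Benjamini-Hochberg adjustment). In the same test 1.09% of 17440 tested genes were called, and 0.35% were called lower in cKO. At an unadjusted p under 0.05 there were 2 of the 35 genes, Ppp2r2c and Ppp4r1, against 20% of all tested genes. Ppp2r2c was also the 1 call among the 35 by DESeq2, where 11.3% of all genes were called, by the edgeR exact test (10.4%), by limma voom (1.15%) and by limma on log2(FPKM + 1) (2.2%). The same single gene was called with median-of-ratios factors (1.05%), library size alone (1.58%), no filter (3.17%), the replicate block (6.75%) and without cKO replicate 2 (8.42%). Without cKO replicate 3 there were 2 calls (4.12%). Without control replicate 2 or 3 there were 0, over all genes too (0%), while at an unadjusted p under 0.05 each left 1 of the 35, against 10.6% and 9.19% of all genes. DESeq2, the exact test and limma voom are called the 3 other tests below. By the authors' deposited values, 1 of the 35 had a false discovery rate under 0.05, against 8.82% of the tested genes.

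**Figure D1:**
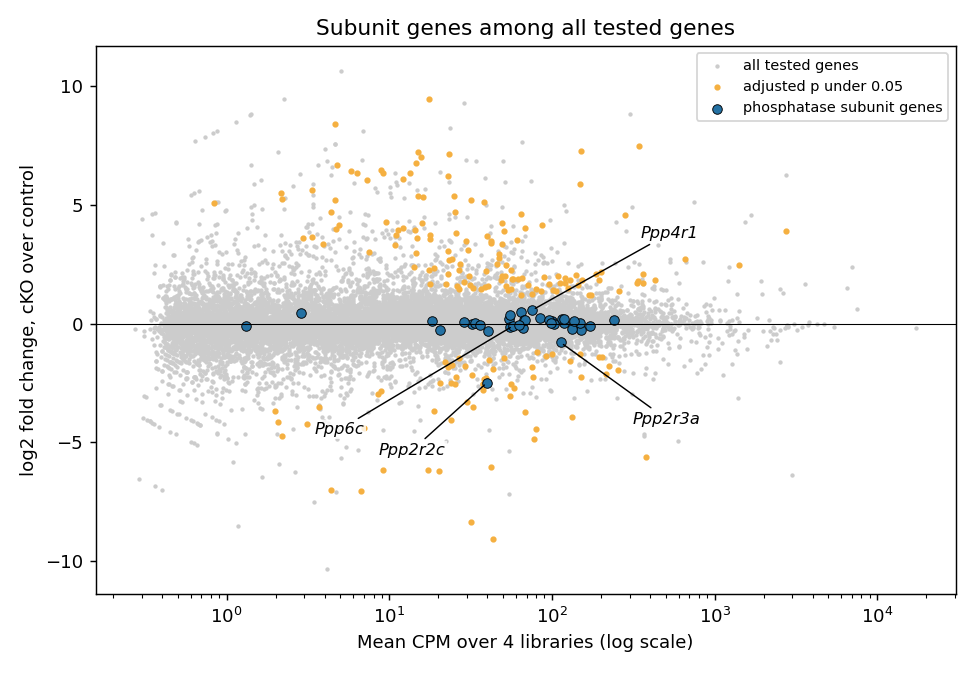
Log2 fold change (cKO over control, edgeR after shrinkage) against mean CPM over the 4 libraries on a log axis, for 17440 tested genes in grey, called genes in orange and the 35 subunit genes in blue. Ppp2r2c, at -2.49, lies well below the other subunit genes, which run from -0.79 to 0.57.

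The other 34 genes had log2 fold changes from -0.79 to 0.57, and their adjusted p ran from 0.118 to 0.992. The median log2 fold change over all 35 was 0.02, against -0.0014 over all tested genes, and the median size of the change was 0.15 against 0.33. A log2 fold change smaller than 0.5 in size was found in 32 of the 35 genes and in 65% of all tested genes. The 95% interval of the difference lay within 1 log2 unit of no change in 30 of the 35, against 44.5% of all tested genes, and within 0.5 in 10 of the 35, against 8.13%. The subunit genes had a median level of 67.3 CPM. Among the 6723 tested genes between the 10th and 90th percentile of the subunit genes' mean CPM, the median size of the change was 0.24. Their median SE was 0.17, near the 0.16 of the subunit genes, against 0.26 over all tested genes. The width of an interval follows the SE, and the interval counts were not set against these genes of like level. In 9 of the 35 genes both cKO libraries lay above both control libraries, in 5 both lay below, and in 21 the groups overlapped. Of all tested genes 52.9% did not overlap, with 25.1% above and 27.7% below.

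**Figure D2:**
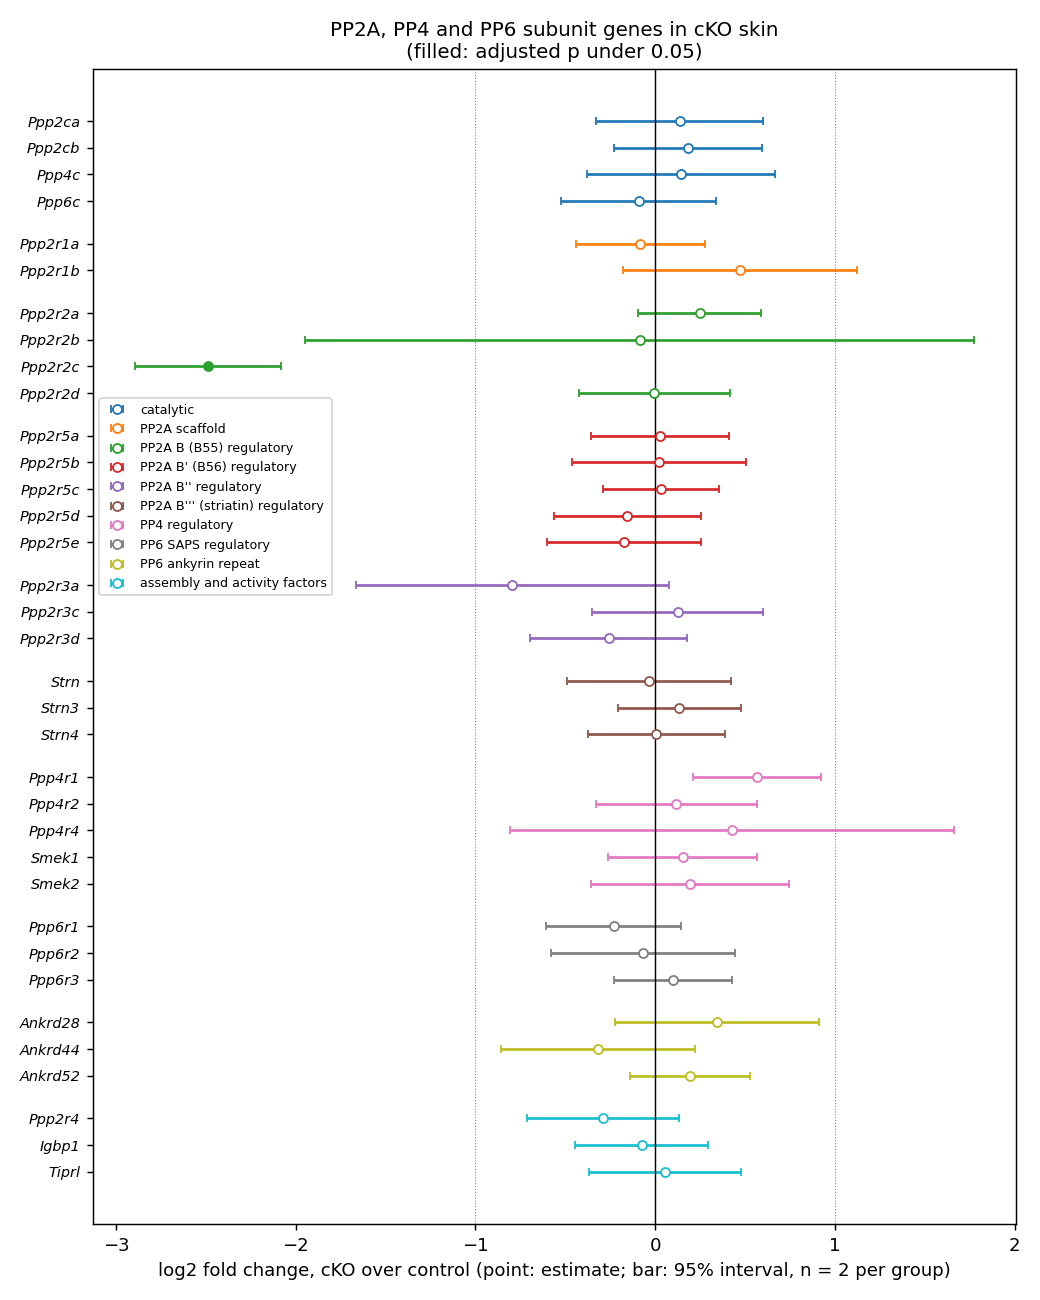
Log2 fold change of each of the 35 subunit genes (cKO over control, before edgeR's shrinkage) with its 95% interval, n = 2 per group, grouped by the subunit's role. The filled point, Ppp2r2c, is the gene with an adjusted p under 0.05, and dotted lines mark 1 log2 unit on either side of no change.

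Ppp6c (ENSMUSG00000026753), the targeted gene, had 62.1 and 50.1 CPM in cKO replicates 2 and 3, against 57.8 and 61.8 CPM in control replicates 2 and 3. The groups overlapped, since cKO replicate 2 was the highest of the 4 libraries and cKO replicate 3 the lowest. The log2 fold change was -0.09 with a 95% interval from -0.52 to 0.34, a cKO-to-control ratio between 0.696 and 1.27 (edgeR quasi-likelihood adjusted p = 0.81). A ratio under 0.696 lies outside the interval. Whole-gene counts cannot check a deletion of part of the gene, and whole skin also holds cells outside the keratin 5 lineage, so cKO is used here as the titles give it.

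The other catalytic subunit genes did not pass either. Ppp2ca, the alpha catalytic subunit of PP2A, had 279 and 222 CPM in cKO against 232 and 224 CPM in control. Its paralogue Ppp2cb had 63.7 and 52.4 CPM in cKO against 51.7 and 50.5 CPM in control, with no overlap but with a log2 fold change of 0.18 ± 0.15 (SE over n = 2 per group, adjusted p = 0.581 by edgeR quasi-likelihood). Ppp4c, the PP4 catalytic subunit, had 81.9 and 59.6 CPM in cKO against 66.4 and 61.5 CPM in control. In Ppp2ca, Ppp2cb and Ppp4c alike, cKO replicate 2 was the highest library.

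Per length, Ppp6c made up 13.3% and 13.5% of the summed FPKM of the 4 catalytic genes in cKO, against 14.8% and 16.2% in control. The share was lower in both cKO libraries, by 2.12 percentage points on average (exact permutation test over libraries, two-sided, p = 0.333, the smallest that 2 against 2 libraries allow). Ppp4c took 18.2% and 16.7% in cKO and 17.7% and 16.7% in control. Ppp2ca took 51.6% and 50.8% of the FPKM of both PP2A catalytic genes in cKO, against 52.2% and 52.0% in control. Levels between genes depend on the gene length used. For 21 of the 35 genes the length implied by the deposited count and FPKM lay within 1% of the summed exon length in GENCODE M21. Ppp2ca was scaled by 7490 bases and Ppp2cb by 1826, so that by counts alone Ppp2ca took 81.4% and 80.9% of the pair in cKO.

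The PP2A scaffold is encoded by Ppp2r1a and Ppp2r1b. Ppp2r1a was the most abundant of all 35 genes per length, with 46.9 and 49.6 FPKM in cKO and 55.3 and 51.7 FPKM in control. Its CPM values overlapped between the groups (159 and 174 in cKO, 182 and 172 in control). Ppp2r1b had 90.8 and 59.6 CPM in cKO against 58.1 and 50.2 CPM in control. The groups did not overlap, but cKO replicate 3 lay closer to the controls than to cKO replicate 2, and the log2 fold change of 0.47 ± 0.25 did not pass (SE over n = 2 per group, adjusted p = 0.374 by edgeR quasi-likelihood). Ppp2r1b made up 23.0% and 15.2% of the summed scaffold FPKM in cKO and 14.4% and 13.3% in control. Summed hair matrix and shaft markers, 10 of 10 detected, ran in the same order over the libraries, at 5549 and 1529 CPM in cKO and 1026 and 140 CPM in control. In GENCODE M21, 22.2% of the exon bases of Ppp2r1b overlap exons of Sik2 on the opposite strand. Sik2 had 507 and 432 counts of its own in cKO and 754 and 945 in control. These counts are not scaled for depth, which was higher in control. The part of the hair markers or of Sik2 in the Ppp2r1b values was not tested.

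The B55 subunits are WD-repeat proteins that steer PP2A to substrates of mitotic exit and of growth signalling. Of the 4 B55 genes, 1 fell, 0 rose and 3 did not pass. Ppp2r2c (ENSMUSG00000029120), the B55 gamma gene, known as enriched in brain, had 201 and 190 counts in cKO against 1612 and 1554 counts in control. These corresponded to 12.8 and 11.3 CPM in cKO and 67.0 and 68.5 CPM in control, a mean of 12.1 ± 1.03 CPM against 67.7 ± 1.05 CPM (SD, n = 2 each). Both cKO libraries were low, both control libraries were high, and the spread within each group was small beside the gap. On the log2 scale the change was -2.49 ± 0.15 (SE, n = 2 per group), with a 95% interval from -2.89 to -2.08 and an edgeR quasi-likelihood adjusted p of 0.0332, a ratio of 0.178. In the authors' deposited table its log2 fold change was -2.51. The edgeR quasi-likelihood call was lost when control replicate 2 or control replicate 3 was left out (adjusted p = 0.164 and 0.208), while the log2 fold change was -2.50 and -2.46. Across all 12 alternatives the value stayed between -2.58 and -2.18.

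**Figure D3:**
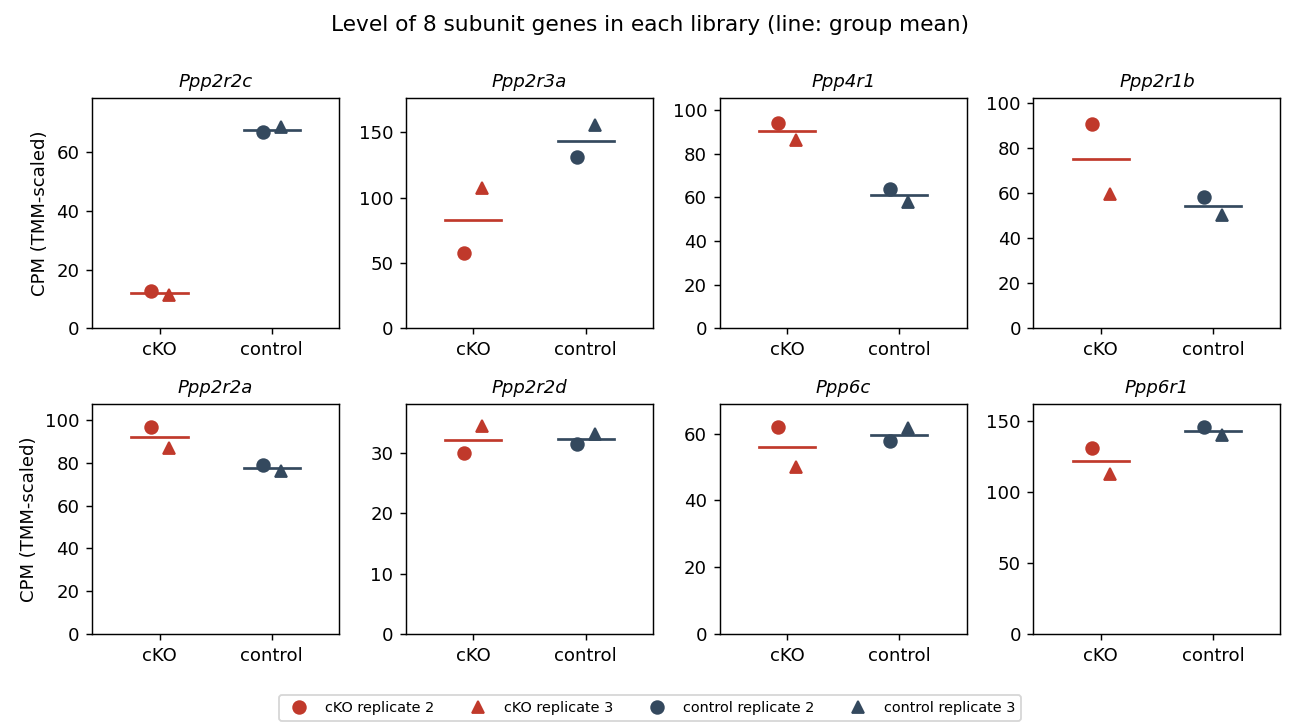
TMM-scaled CPM of 8 subunit genes in each library, with cKO left of control, circles for replicate 2, triangles for replicate 3 and lines at the group means. Ppp2r2c stands at 12.8 and 11.3 CPM in cKO and at 67.0 and 68.5 CPM in control, whereas Ppp6c and Ppp2r2d overlap between the groups.

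The other B55 genes differed less. Ppp2r2a, the widely expressed alpha gene, had 96.8 and 87.1 CPM in cKO against 78.8 and 76.1 CPM in control, a log2 fold change of 0.25 ± 0.13 (SE over n = 2 per group, adjusted p = 0.379 by edgeR quasi-likelihood). Ppp2r2d, the delta gene, had 29.9 and 34.4 CPM in cKO against 31.3 and 33.1 CPM in control, and its cKO libraries lay on either side of the controls. Ppp2r2b, the beta gene, was near the limit of detection, with 9 and 33 counts in cKO and 24 and 39 counts in control, and its 95% interval ran from -1.95 to 1.77. Neuron and Schwann cell markers, 8 of 8 detected and 6 tested, summed to 154 and 315 CPM in cKO and to 264 and 280 CPM in control, also lowest in cKO replicate 2.

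The make-up of the B55 group differed accordingly. Per length, Ppp2r2c was 9.0% and 8.4% of the summed B55 FPKM in cKO, against 37.5% and 38.2% in control. Ppp2r2a was 74.8% and 70.9% in cKO against 48.6% and 46.8% in control, and Ppp2r2d averaged 17.5% in cKO against 13.6% in control. The 4 genes together summed to 31.8 and 29.2 FPKM in cKO and to 41.3 and 40.95 FPKM in control. These shares do not depend on library scaling, but they do depend on the gene lengths used. Ppp2r2a was scaled by 4036 bases, against 5381 in GENCODE M21, and Ppp2r2c by 4449, against 4450. The rank of these 2 genes in control therefore rests on the length. By counts alone Ppp2r2a took 44.3% and 42.4% in control, and Ppp2r2c 37.6% and 38.2%. The shares sum to 100% in each library, so the higher shares of Ppp2r2a and Ppp2r2d are no separate differences from the lower share of Ppp2r2c. With 2 libraries against 2, the exact permutation test of the Ppp2r2c share cannot go below its value of 0.333 (two-sided). Ppp2r2c was thus 1 of 2 B55 genes with sizeable control levels, at 15.5 and 15.6 FPKM beside 20.1 and 19.2 FPKM of Ppp2r2a, and stood at 2.85 and 2.45 FPKM in cKO beside 23.8 and 20.7 FPKM of Ppp2r2a.

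**Figure D4:**
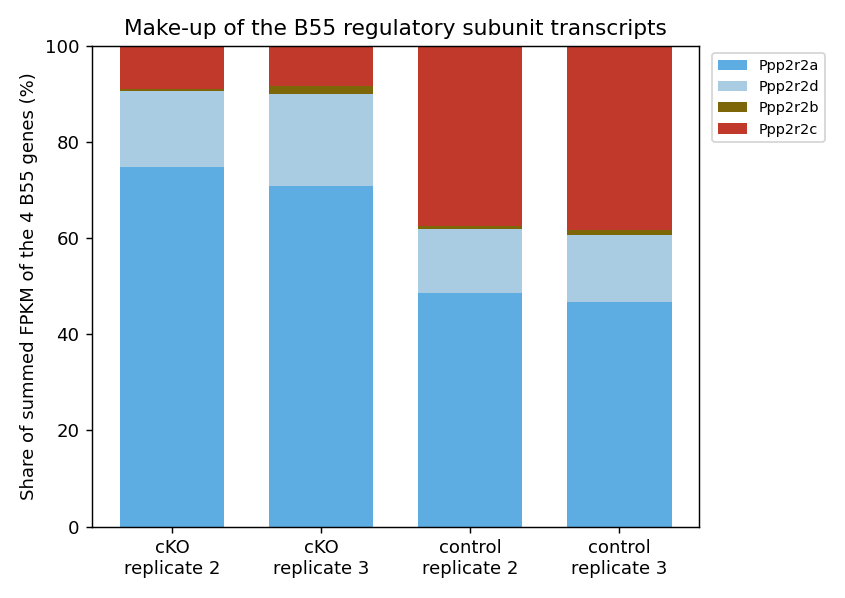
Share of the summed FPKM of the 4 B55 genes held by each gene in each library, in percent, with the cKO libraries on the left. Ppp2r2c takes 9.0% and 8.4% in cKO and 37.5% and 38.2% in control. With the authors' FPKM Ppp2r2a takes the largest share in all 4 libraries, a rank that in control depends on the gene length used.

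Marker lists of other cell types that were lower in both cKO libraries were set beside Ppp2r2c. Sebaceous gland markers, 8 of 8 detected, summed to 2074 and 1245 CPM in cKO against 4847 and 5730 CPM in control. T cell markers, 8 of 8 detected, summed to 11.1 and 12.8 CPM in cKO against 32.9 and 41.4 CPM in control. Adipocyte markers, 8 of 8 detected, summed to 738 and 661 CPM in cKO against 926 and 1644 CPM in control. No defining marker of these lists was at 0, and their part in the Ppp2r2c value was not tested. No exon of another M21 gene overlaps the exons of Ppp2r2c, and the row named Ppp2r2cos held 0 counts in 3 libraries and 1 in control replicate 3.

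The promoters of Ppp2r2c, the gene that fell, and of its paralogue Ppp2r2d, whose groups overlapped, are shown as 300 bases each, from 250 before to 50 after the start (RefSeq, GRCm38.p6, strand + for both). Capitals mark the GC box letters GGGCGG and the CCAAT letters, each searched on both strands. The window of Ppp2r2c is chr5:36868260-36868559 and that of Ppp2r2d is chr7:138846109-138846408, the first of 2 starts listed for that gene.
Ppp2r2c: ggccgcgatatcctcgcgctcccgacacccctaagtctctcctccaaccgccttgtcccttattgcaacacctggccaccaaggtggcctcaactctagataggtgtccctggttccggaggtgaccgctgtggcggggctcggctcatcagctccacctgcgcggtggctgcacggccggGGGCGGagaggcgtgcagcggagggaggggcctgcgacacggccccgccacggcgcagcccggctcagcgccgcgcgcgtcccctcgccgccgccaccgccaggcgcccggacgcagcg
Ppp2r2d: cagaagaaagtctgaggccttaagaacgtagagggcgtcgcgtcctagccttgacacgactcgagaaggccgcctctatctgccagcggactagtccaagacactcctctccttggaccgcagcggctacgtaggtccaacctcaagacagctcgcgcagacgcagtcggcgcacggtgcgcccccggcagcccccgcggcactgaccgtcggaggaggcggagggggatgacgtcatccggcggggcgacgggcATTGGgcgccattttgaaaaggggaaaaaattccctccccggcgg
The Ppp2r2c window held 1 GC box and 36 CpG pairs at 72.7% GC, and the Ppp2r2d window held 1 CCAAT motif, read on the reverse strand, and 32 CpG pairs at 64.3% GC. Neither held TATAAA. Of 32851 windows of this length in the table, 35.7% held a GC box, 37.4% a CCAAT motif and 13.6% TATAAA. Entries were found for 27 of the 35 genes, with 33 windows in all, of which 23 held a GC box, 12 a CCAAT motif and 1 TATAAA. Their median GC content was 65.7%, against 52.7% over the whole table. A high GC content was therefore common to Ppp2r2c and most other subunit genes. These matches are descriptions of letters, not of bound sites.

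The B56 subunits direct PP2A to kinetochores and to Wnt and growth factor signalling. Of the 5 B56 genes, 0 passed, against 1.09% of all tested genes, and 0 reached an unadjusted p under 0.05, against 20%. In all 5 the groups overlapped, while 52.9% of all tested genes did not overlap. The 3 other tests called 0, against 11.3%, 10.4% and 1.15% of all genes. In so small a family these counts of 0 do not set it apart from other genes. Ppp2r5c, the gamma gene, had 122 and 118 CPM in cKO against 115 and 120 CPM in control. Its log2 fold change had the narrowest 95% interval of all 35 genes, from -0.29 to 0.36. By the authors' FPKM it was the most abundant of the 5 in every library. That rank rests on an implied length of 4224 bases, against 8286 in GENCODE M21, and by counts Ppp2r5a was the highest in every library. Ppp2r5a had 141 and 158 CPM in cKO against 139 and 155 CPM in control, and in both groups replicate 3 was the higher. Ppp2r5d and Ppp2r5e had log2 fold changes of -0.15 ± 0.15 and -0.17 ± 0.16 (SE, n = 2 per group). The summed B56 FPKM was 87.2 and 82.2 in cKO and 93.0 and 89.8 in control, and no B56 gene's mean share differed by more than 1.67 percentage points between the groups.

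Of the 3 genes of the EF-hand B'' family, 0 passed, against 1.09% of all tested genes. In edgeR quasi-likelihood 0 reached an unadjusted p under 0.05, against 20%. The 3 other tests called 0, against 11.3%, 10.4% and 1.15% of all genes. Ppp2r3a, whose isoforms are known as PR72 and PR130 and are prominent in muscle, had 57.9 and 107 CPM in cKO against 131 and 155 CPM in control. Both cKO libraries were below both controls, but they differed widely, and the log2 fold change of -0.79 ± 0.33 had a 95% interval from -1.67 to 0.08 (SE over n = 2 per group, adjusted p = 0.284 by edgeR quasi-likelihood). Without cKO replicate 3 it was -1.31 and passed, and without cKO replicate 2 it was -0.42 and did not (edgeR quasi-likelihood adjusted p = 0.0436 and 0.199). Skeletal muscle markers, 8 of 8 detected, summed to 1575 and 10190 CPM in cKO and to 7394 and 11320 CPM in control. They were lowest in cKO replicate 2 and highest in control replicate 3, as Ppp2r3a was. Unlike Ppp2r3a, they were higher in cKO replicate 3 than in control replicate 2. The part of these markers in the Ppp2r3a value was not tested. Ppp2r3d had 18.8 and 18.5 CPM in cKO against 22.2 and 22.4 CPM in control, a gap larger than the spread within either group, yet with a log2 fold change of only -0.26 ± 0.16 (SE over n = 2 per group, adjusted p = 0.462 by edgeR quasi-likelihood). Ppp2r3c, the third gene, had 19.98 and 18.3 CPM in cKO against 18.2 and 16.9 CPM in control.

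The striatins are the regulatory subunits through which PP2A joins the STRIPAK complex, which also carries germinal centre kinases of the Hippo pathway. None of Strn, Strn3 and Strn4 passed, against 1.09% of all tested genes, and 0 reached an unadjusted p under 0.05, against 20%. The 3 other tests called 0, against 11.3%, 10.4% and 1.15% of all genes. Their log2 fold changes ran from -0.03 to 0.13. Strn had 115 and 88.7 CPM in cKO against 105 and 104 CPM in control, and the cKO libraries lay on either side of the controls. Strn3 had 95.3 and 105 CPM in cKO against 88.5 and 93.6 CPM in control.

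All 5 PP4 regulatory genes had positive log2 fold changes, from 0.12 to 0.57, as had 8699 of the 17440 tested genes. In edgeR quasi-likelihood 0 of the 5 passed. An unadjusted p under 0.05 was reached by 1 of the 5, against 20% of all tested genes, and the 3 other tests called 0. The direction of 2 of them, Ppp4r2 and Smek2, turned without cKO replicate 2 (-0.065 and -0.075). Ppp4r1, which binds PP4 through HEAT repeats and is known to restrain NF-kB signalling in T cells, had 94.1 and 86.4 CPM in cKO against 64.0 and 57.9 CPM in control. Both cKO libraries were above both controls by more than the spread within a group. Its log2 fold change was 0.57 ± 0.13 with a 95% interval from 0.21 to 0.92 (SE, n = 2 per group, unadjusted p = 0.0105 and adjusted p = 0.118, edgeR quasi-likelihood). In the authors' deposited table Ppp4r1 had a log2 fold change of 0.49 and a false discovery rate of 0.35. The related row Ppp4r1l-ps had 410 and 733 counts in cKO and 947 and 1025 in control. These counts are not scaled for depth, and the control libraries were the deeper ones. Reads of Ppp4r1 and this pseudogene may have been split.

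Ppp4r2, which with the Smek proteins forms the PP4 complex that dephosphorylates histone H2AX, had 116 and 91.3 CPM in cKO against 98.9 and 92.1 CPM in control. Smek1 had 78.6 and 66.1 CPM in cKO against 68.9 and 61.3 CPM in control, and Smek2 had 145 and 103 CPM in cKO against 113 and 103 CPM in control. In these 3 genes replicate 2 exceeded replicate 3 in both groups. Ppp4r4 was the least abundant of the PP4 genes, with 0.63 and 0.9 FPKM in cKO and 0.42 and 0.78 FPKM in control.

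Of the 6 regulatory genes of PP6, 0 passed, against 1.09% of all tested genes, and 0 reached an unadjusted p under 0.05, against 20%. The 3 other tests called 0, against 11.3%, 10.4% and 1.15% of all genes. The SAPS-domain gene Ppp6r1 had 131 and 113 CPM in cKO against 146 and 140 CPM in control, a log2 fold change with a 95% interval from -0.61 to 0.15. Ppp6r3 had 144 and 137 CPM in cKO against 132 and 131 CPM in control, with an interval from -0.23 to 0.43. These 2 genes did not overlap between the groups, in opposite directions, and Ppp6r2 overlapped (30.3 and 40.2 CPM in cKO, 35.9 and 37.9 CPM in control). Within the SAPS group Ppp6r1 made up 40.4% and 35.8% of the FPKM in cKO against 43.3% and 42.1% in control, and Ppp6r3 43.8% and 42.7% in cKO against 38.7% and 38.6% in control. By the authors' FPKM, Ppp6r3 thus ranked above Ppp6r1 in both cKO libraries and below it in both control libraries. The exact permutation p was 0.333 (two-sided), the smallest possible and so no call, and the shares depend on each other. The rank rests on an implied length of 4952 bases for Ppp6r3, against 9378 in GENCODE M21. Ppp6r1 was scaled by 4886 bases, against 4887. The CPM above, which take no length into account, ranked the 2 genes in the same way.

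The ankyrin repeat subunits showed no common direction. Ankrd28 had 50.5 and 72.9 CPM in cKO against 49.0 and 48.2 CPM in control, with cKO replicate 3 standing apart from the other libraries. Ankrd52 had 125 and 127 CPM in cKO against 115 and 106 CPM in control, and Ankrd44 had 31.9 and 39.9 CPM in cKO against 39.5 and 49.96 CPM in control. Their 95% intervals ran from -0.23 to 0.91, from -0.14 to 0.53 and from -0.86 to 0.22.

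Of the 3 assembly and activity factors 0 passed, against 1.09% of all tested genes, and 0 reached an unadjusted p under 0.05, against 20%. The 3 other tests called 0, against 11.3%, 10.4% and 1.15% of all genes. Ppp2r4, the PP2A activator now called Ptpa, had 150.2 and 122 CPM in cKO against 167 and 165 CPM in control, with a log2 fold change of -0.29 ± 0.16 (SE over n = 2 per group, adjusted p = 0.4 by edgeR quasi-likelihood). Both cKO libraries were below the controls. Igbp1, the mammalian alpha4 chaperone that stabilises free catalytic subunits, had 65.2 and 56.5 CPM in cKO against 63.6 and 64.7 CPM in control. Tiprl, another binding partner of the catalytic subunits, had 31.4 and 27.7 CPM in cKO against 29.3 and 27.6 CPM in control.

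Regulators and partners of these enzymes that are no subunits were read from a separate list of 24 genes. All 24 were tested, and 0 passed in edgeR quasi-likelihood. An unadjusted p under 0.05 was reached by 2 of the 24, against 20% of all tested genes. There were 2 calls by DESeq2 (11.3% of all genes), by the exact test (10.4%) and in the authors' deposited table (8.82%). By limma voom there were 0 (1.15%). The median log2 fold change was 0.04. Cttnbp2, a cortactin-binding STRIPAK partner, had 16.3 and 9.25 CPM in cKO against 38.2 and 39.6 CPM in control, a log2 fold change of -1.61 ± 0.31 (SE over n = 2 per group, adjusted p = 0.09 by edgeR quasi-likelihood). Strip2, a STRIPAK scaffold component, had 3.24 and 2.92 CPM in cKO against 7.44 and 10.4 CPM in control, with a difference of -1.53 ± 0.31 in log2 (SE over n = 2 per group, adjusted p = 0.0959 by edgeR quasi-likelihood). In the authors' deposited table both were lower in cKO, with false discovery rates of 0.00157 and 0.0388. Anp32a, an inhibitor of PP2A, was next by p, with 65.0 and 60.7 CPM in cKO against 79.7 and 74.4 CPM in control (log2 fold change -0.29 ± 0.13, edgeR quasi-likelihood adjusted p = 0.307).

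Among 9 further catalytic genes of the PPP family, 8 were tested and 0 passed, against 1.09% of all tested genes. The count with an unadjusted p under 0.05 was 0, against 20%. The 3 other tests gave 0 calls, against 11.3%, 10.4% and 1.15% of all genes, and the authors' deposited table gave 0, against 8.82%. Ppef1 was too low to be tested. Ppp1ca and Ppp1cb, catalytic subunits of protein phosphatase 1, had 264 and 224 CPM in cKO against 199.7 and 192 CPM in control, and 347 and 312 CPM in cKO against 279 and 279.7 CPM in control. Their log2 fold changes were 0.32 ± 0.16 and 0.24 ± 0.15 (SE, n = 2 per group). Ppef2, a calcium-binding phosphatase of sensory cells, had 0.83 and 0.95 CPM in cKO against 1.08 and 1.67 CPM in control.

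Replicate 2 was above replicate 3 in 23 of the 35 genes in cKO and in 22 of the 35 in control, and the sign was shared between the groups in 26 of the 35. Over all tested genes replicate 2 was the higher in 52.2% in cKO and in 49.9% in control, and the sign was shared in 67.5%, near the 74.3% of the subunit genes.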

How the data were processed

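The authors deposited 1 table with estimated counts, FPKM and their own comparison for each gene, from mRNA selected with oligo(dT) and made into TruSeq libraries, per the labels' protocols. RSEM, edgeR and the build mm8 are named in the submitters' processing notes; a name for the aligner, annotation or strand setting was not given in the sources used here, so reads of overlapping genes on opposite strands cannot be told apart. The expected counts are whole numbers as deposited by the authors. The FPKM are the authors', per the file headers, as are the log2 fold change of cKO over control and the p-value and false discovery rate. The Ctr columns were taken as the PP6fl/fl samples, since cKO is the other group. Within groups, libraries were distinct (chi-square per gene 103 in cKO and 26.8 in control).

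Genes were filtered with filterByExpr (17440 of 47725 kept), scaled with TMM and tested with edgeR 4.0.16 (R 4.3.3, limma 3.58.1, DESeq2 1.42.0) by glmQLFit and glmQLFTest with no covariate, Benjamini-Hochberg adjustment over all tested genes and a threshold of 0.05. SE was obtained by dividing the unshrunken log2 fold change by the square root of F, and 95% intervals use the test's degrees of freedom. Folds and intervals are before shrinkage, log2 fold changes after it. The FPKM alternative used log2(FPKM + 1). Scripts were tested on simulated data. The alternatives were other scalings, tests and filters, the replicate number as a block, and leaving out each library. Subunit shares came from FPKM. The genes and lists were chosen with earlier results of these data known; all 35 subunit genes may be named, and of the other lists called genes and the 3 with the smallest p. Symbols were matched to GENCODE M21 and RefSeq on GRCm38, used for exon overlaps, lengths and promoters only. SE and intervals rest on 2 libraries per group, with each gene's spread moderated in the edgeR fit by that of all tested genes. They therefore do not measure a gene's own spread between libraries alone.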

Additional observations from a re-analysis of the deposited data

How the results depend on the processing

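The direction of Ppp2r2c held under all 12 alternatives and its call under 10; without control replicate 2 and without control replicate 3 the call was lost. Counts of called genes moved widely. Over all genes, 190 calls became 1886 with DESeq2, 1811 with the edgeR exact test, 383 with limma on log2(FPKM + 1), 883 with no filter, 1177 with the replicate block, and 0 to 1469 when single libraries were left out. Among the 35 subunit genes the count was 1, and 0 to 2 with a library left out. At an unadjusted p under 0.05, 1 of the 35 passed without either control library. Of the 24 regulators and partners, 0 calls became 2 with DESeq2 and with the exact test, 1 with no filter, 1 with the replicate block, and 0 to 1 with a library left out. With the replicate block the called regulator was Cttnbp2 (log2 fold change -1.66), and no subunit call changed. The replicate numbers are not stated to pair samples; deviations of same-numbered libraries from their group means correlated at 0.41 over genes.

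Genes near no change turned sign, none with a call. The median shift over all genes was -0.066 with library size alone and -0.068 with limma on log2(FPKM + 1). In size both were more than the main values of the genes that turned under them. What turned each of these genes was not tested. With library size alone the values were -0.043 for Ppp2r5a, -0.048 for Ppp2r5b, -0.034 for Ppp2r5c, -0.0099 for Tiprl and -0.058 for Strn4, and with limma on log2(FPKM + 1) they were -0.040, -0.048, -0.034, -0.011 and -0.058. Without a filter Strn4 had -0.0085. Ppp2r2d had 0.016 with median-of-ratios factors and with DESeq2. With single libraries left out the range was -0.15 to 0.54 over 19 such values in 14 genes, whose full ranges were Ppp2ca from -0.039 to 0.29, Ppp2r2b from -1.23 to 0.54, Ppp2r2d from -0.11 to 0.093, Ppp2r5a from -0.057 to 0.12, Ppp2r5b from -0.15 to 0.17, Ppp4c from -0.10 to 0.36, Ppp4r2 from -0.065 to 0.28, Smek2 from -0.075 to 0.42, Ppp6c from -0.26 to 0.056, Ppp6r2 from -0.28 to 0.12, Igbp1 from -0.18 to 0.025, Tiprl from -0.037 to 0.14, Strn from -0.24 to 0.14 and Strn4 from -0.10 to 0.11. The cause of the turns with a library left out was not tested. The Ppp2ca share of the 4 catalytic genes differed by 0.96 percentage points by counts, against 0.37 by FPKM. With 2 libraries per group, a gene at low depth such as Ppp2r2b has an interval too wide to show a difference.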
